A study of Mus musculus with 40 samples.

Results

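Slc7a11, Slc38a2 and 6 related genes that bring amino acids into cells or answer to their shortage were followed across 4 groups of mouse cortex. The 8 genes were Slc7a11, Slc3a2, Slc7a5, Slc38a1, Slc38a2, Slc1a1, Slc1a4 and Atf4. They were taken by symbol, as every RefSeq transcript of these symbols in the deposited table, which gave 10 transcripts of the 6831 transcripts and 8 of the 5846 symbols in it. Slc38a1 was present as 3 transcripts and each other gene as 1. The genes had been chosen by earlier results of the same libraries. Which values chose them is not recorded. Their values in the comparison of impact with sham under saline are therefore given as a description. Calls counted in that comparison are not support for a change.

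Slc7a11 encodes the light chain of system xc-, an exchanger that takes up cystine and releases glutamate, and cystine feeds the synthesis of the antioxidant glutathione. Its partner in the membrane is the heavy chain encoded by Slc3a2, which also pairs with the light chain of Slc7a5, the large neutral amino acid carrier LAT1. Slc38a1 and Slc38a2 encode sodium-coupled carriers of glutamine and other neutral amino acids, Slc1a1 encodes the neuronal glutamate and cysteine transporter, and Slc1a4 encodes a neutral amino acid exchanger that carries serine. Atf4 encodes a transcription factor that is translated more when cells lack amino acids or are otherwise stressed, and several transporter genes, Slc7a11, Slc38a2 and Slc3a2 among them, are known targets of it. Its activity is set to a large part by translation, which RNA levels do not show.

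RNA came from the dissected cortex of male C57BL/6 mice of 12 weeks in 40 samples, with 10 libraries in each group. Each drug, saline or memantine, was given to a sham group and to an HF-HI group, where HF-HI is high-frequency head impact, a series of closed-head impacts given daily under isoflurane, and sham mice had the same handling and anaesthesia with no impact. Memantine, a blocker of the NMDA type of glutamate receptor, or saline was injected into the abdomen 1 h before each session, and tissue was taken 24 h after the last one. The libraries held between 13322404 and 17529644 reads in the table, and the labels give no batch. Values below are normalised read counts, recovered from the deposited variance-stabilised values, and each fold is the ratio of group means on the log2 scale of these counts with its 95% confidence interval. A transcript is said to pass where its unadjusted p-value in limma was under 0.05. The study used DESeq2 with P under 0.05 for this experiment, and its methods do not say there whether that value was adjusted.

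The cell makeup of the tissue was read from marker genes. Of the cortical markers, 6 of 7 were in the table, with mean counts between 710 for Neurod6 and 2801 for Rorb, and of the blood markers 0 of 5 were in it. Markers of striatum, a region beneath the cortex, were lower in saline HF-HI, where 6 of 12 transcripts (50%) passed, beside 9.53% of all transcripts. Their summed count was 34121 ± 3261 in saline HF-HI against 39238 ± 5146 in saline sham (mean ± SD, n = 10). Clock genes, which cycle over the day, were higher in saline HF-HI, with 6 of 17 transcripts passing upward and 1 downward (41.2% in all). Their summed count was 31929 ± 1390 in saline HF-HI and 33293 ± 1606 in memantine sham against 29632 ± 1677 in saline sham. Under saline 2 of 5 endothelial transcripts (both higher), 2 of 7 cortical (1 higher, 1 lower) and 3 of 14 neuronal (2 higher, 1 lower) passed too. So did 1 of 5 microglial and 1 of 14 oligodendrocyte transcripts, both higher. The lists as a whole did not all go this way. Of the 5 endothelial estimates 3 were below 0, and of the 14 oligodendrocyte estimates 9 were, against 1 of the 5 microglial. The summed endothelial count was 5236 ± 217 in saline HF-HI against 5340 ± 253 in saline sham. Under memantine 0 striatal, endothelial, cortical or neuronal transcripts passed, and 2 clock, 1 microglial and 2 oligodendrocyte transcripts did. Summed astrocyte markers ran from 139909 to 159669 in saline sham and from 146337 to 154798 in saline HF-HI, and in the memantine arm from 149361 to 155215 in sham and from 145972 to 154788 in HF-HI mice. Of these 20 transcripts 1 (5%) passed under saline (higher) and 3 (15%) under memantine (2 higher, 1 lower), beside 9.53% and 4.61% of all. The one under saline was Gfap, the intermediate filament that reactive astrocytes make more of, at 1546 ± 347 in HF-HI against 1253 ± 230 in sham and 1.22-fold (1.05 to 1.43, p = 0.0111, adjusted p = 0.374). Gfap was also higher under memantine, at 1613 ± 257 against 1179 ± 146 and 1.36-fold (1.17 to 1.59, p = 0.000257, adjusted p = 0.351), with all 10 HF-HI libraries above the sham mean. The part of these differences in the results below was not tested beyond the fits that carry the striatal, clock or astrocyte markers as covariates. In bulk tissue fewer cells of a type and less RNA per cell cannot be told apart.

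The start of Slc7a11 is shown because it holds the core letters of the amino acid response element through which Atf4 acts. The start of Slc38a2 is shown beside it because both genes were higher after impact under saline, the comparison that may have chosen them. The sequences are RefSeq's for build GRCm38.p6, the 250 bases before the annotated start, 5′ to 3′ on the gene's strand. They lie at chr3:50443614-50443863 (minus strand) for Slc7a11 and at chr15:96699729-96699978 (minus strand) for Slc38a2. Capitals mark TGATGCAA and its reverse complement TTGCATCA, which were searched on both strands.

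Slc7a11 upstream: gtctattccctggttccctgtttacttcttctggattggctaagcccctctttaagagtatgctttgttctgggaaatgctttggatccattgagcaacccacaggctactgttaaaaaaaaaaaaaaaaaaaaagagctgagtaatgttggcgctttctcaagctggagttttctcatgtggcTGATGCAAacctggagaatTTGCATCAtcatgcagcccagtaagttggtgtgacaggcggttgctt

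Slc38a2 upstream: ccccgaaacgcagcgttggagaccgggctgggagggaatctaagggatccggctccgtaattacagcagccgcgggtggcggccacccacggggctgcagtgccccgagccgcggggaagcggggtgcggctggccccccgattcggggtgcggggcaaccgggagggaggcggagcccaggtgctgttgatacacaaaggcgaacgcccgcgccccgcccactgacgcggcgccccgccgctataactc

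The Slc7a11 window held the core once in each orientation, from 66 to 59 and from 47 to 40 bases before the start. Of 32851 windows of this length in the mouse, 260 (0.791%) held the core in either orientation, and 1 window, that of Slc7a11, held both orientations. Upstream windows were at hand for 6 of the 8 genes, and these letters were not in the windows of Slc38a2, Atf4, Slc3a2, Slc1a1 and Slc1a4. The match is a description of the letters and not of binding. Sequence outside these 250 bases was not searched, so a window without the letters does not show that the gene lacks the element. Slc38a1 (chr15:96571418-96643438), Slc38a2 (chr15:96687392-96699728) and Atf4 (chr15:80255184-80257545) lie on chromosome 15, the first of these next to the second.

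In saline sham mice, levels were compared between genes as counts per kilobase of transcript. The summed Slc38a1 transcripts stood highest at 885 ± 63.7 counts per kilobase, followed by Atf4 at 758 ± 35.3, Slc38a2 at 685 ± 36.6 and Slc1a1 at 673 ± 20.7 (mean ± SD, n = 10). Each of these overlapped its neighbour in that order. Slc3a2 followed at 338 ± 50.9, below every library of Slc1a1. Slc1a4 at 218 ± 14.1 did not reach the lowest Slc3a2 library, and Slc7a11 at 183 ± 8.86 and Slc7a5 at 178 ± 16.5 were the lowest and overlapped each other. Slc1a4 and Slc7a11 overlapped too. The heavy chain Slc3a2 thus had a higher level per length than either light chain that was measured.

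Head impact under saline was described first. Of the 10 transcripts, 5 passed, beside 9.53% of all 6831 transcripts. Those 5 were Slc7a11, Slc38a2, Atf4 and the Slc38a1 transcript NM_134086, which were higher (4.58% of all transcripts passed upward), and Slc1a1, which was lower (4.95% passed downward). Since this comparison may have chosen the genes, the count is not a result about them. The same genes were then read in the memantine arm, whose libraries are not among those of the saline arm. Earlier results of the memantine arm were known too when the genes were chosen, so its p-values are not independent support. There 3 transcripts passed, beside 4.61% of all, with Slc7a11 higher (2.39% upward) and Slc1a1 and Slc7a5 lower (2.23% downward). None of the 3 passed after adjustment over the table. Over all transcripts the median change was within 0.001 of 0 on the deposited scale in each of the 5 contrasts.

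**Figure D1:**
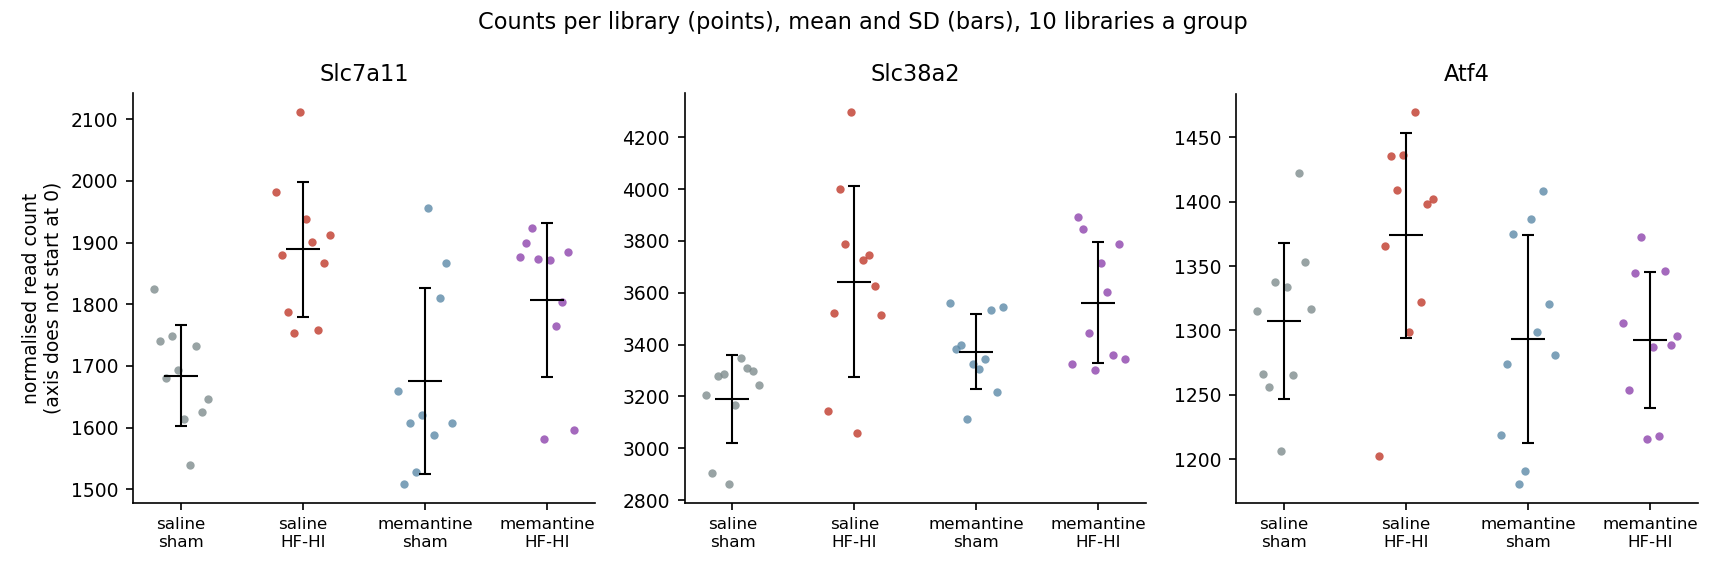
Normalised read counts of Slc7a11, Slc38a2 and Atf4 (vertical axes, not starting at 0) in the 4 groups, with 1 point per library and bars for mean and SD of 10 libraries. Slc7a11 in saline HF-HI lay above the sham mean of 1684 in 10 of 10 libraries, Slc38a2 above the highest sham library in 8 of 10, and Atf4 averaged 1374 in saline HF-HI and 1293 in memantine HF-HI.

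Slc7a11, the cystine and glutamate exchanger, was higher after impact in both drug arms. Under saline its counts ran from 1539 through a median of 1687 to 1824 in sham mice, and from 1753 through 1890 to 2111 in HF-HI mice. All 10 HF-HI libraries were above the sham mean and 7 were above the highest sham library, while the ranges still overlapped. The fold was 1.12 (1.05 to 1.19). Under memantine the counts ran from 1508 through 1614 to 1957 in sham mice and from 1581 through 1872 to 1923 in HF-HI mice. Here 8 of 10 HF-HI libraries were above the sham mean, and the other 2 were near the bottom of the sham range. Slc7a11 rose 1.08-fold (1.02 to 1.15, limma p = 0.0158, adjusted p = 0.967). It passed in each of the 40 fits that left out 1 library, with p between 0.00235 and 0.0386, and in each of 12 other settings, with p between 0.00625 and 0.0408. Here and below, leaving out a library from outside the compared groups keeps the estimate and changes only the shared spread. Such fits say little about how the call depends on single libraries. With the mean of the astrocyte markers as a covariate, added after the data were seen, its change under memantine was 0.0559 on the deposited scale (p = 0.0166). With the mean of the striatal markers, a planned covariate, that change was 0.0519 (p = 0.0213). Under saline the striatal covariate gave 0.0709 for Slc7a11 in place of 0.0830.

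The size of the Slc7a11 change was not shown to differ between the arms. The ratio of the folds, memantine over saline, was 0.964 (0.884 to 1.05, interaction p = 0.371). Memantine alone gave 0.992 (0.933 to 1.05, p = 0.823) in sham mice. Memantine HF-HI against saline HF-HI gave 0.956 (0.899 to 1.02, p = 0.14). These comparisons share groups with each other and are not separate evidence.

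Slc3a2, the heavy chain shared by Slc7a11 and Slc7a5, did not pass in any contrast. Its counts ran from 492 through a median of 646 to 770 in saline sham and from 466 through 614 to 894 in saline HF-HI. With memantine they ran from 463 through 532 to 826 in sham mice and from 439 through 558 to 654 in HF-HI mice. The spread was wide, with a coefficient of variation of 23.3% in saline HF-HI beside 5.79% for Slc7a11 in the same libraries. The folds of impact were 1.02 (0.871 to 1.19) under saline and 0.969 (0.828 to 1.13, p = 0.652) under memantine, intervals that hold the Slc7a11 fold. Memantine HF-HI against saline HF-HI gave 0.893 (0.763 to 1.05, p = 0.133).

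Slc7a5, the LAT1 light chain, went the other way under memantine. Its counts ran from 563 through a median of 699 to 768 in memantine sham and from 489 through 614 to 735 in memantine HF-HI, and 8 of 10 HF-HI libraries were below the sham mean. It fell to 0.887-fold (0.798 to 0.986, p = 0.0249, adjusted p = 0.967). That call was lost without memantine sham replicate 4 (p = 0.0506) and without memantine HF-HI replicates 1, 4 or 5 (p = 0.0564, 0.0556 and 0.064). Under saline the counts ran from 537 through 645 to 695 in sham mice and from 436 through 621 to 687 in HF-HI mice, with a fold of 0.968 (0.871 to 1.08). The sham groups themselves stood apart, with memantine sham above the saline sham mean in 9 of 10 libraries and a fold of 1.10 (0.987 to 1.22, p = 0.0734), and memantine HF-HI against saline HF-HI gave 1.00 (0.904 to 1.12, p = 0.919). The interaction was not resolved, with a ratio of folds of 0.916 (0.789 to 1.06, p = 0.227).

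**Figure D2:**
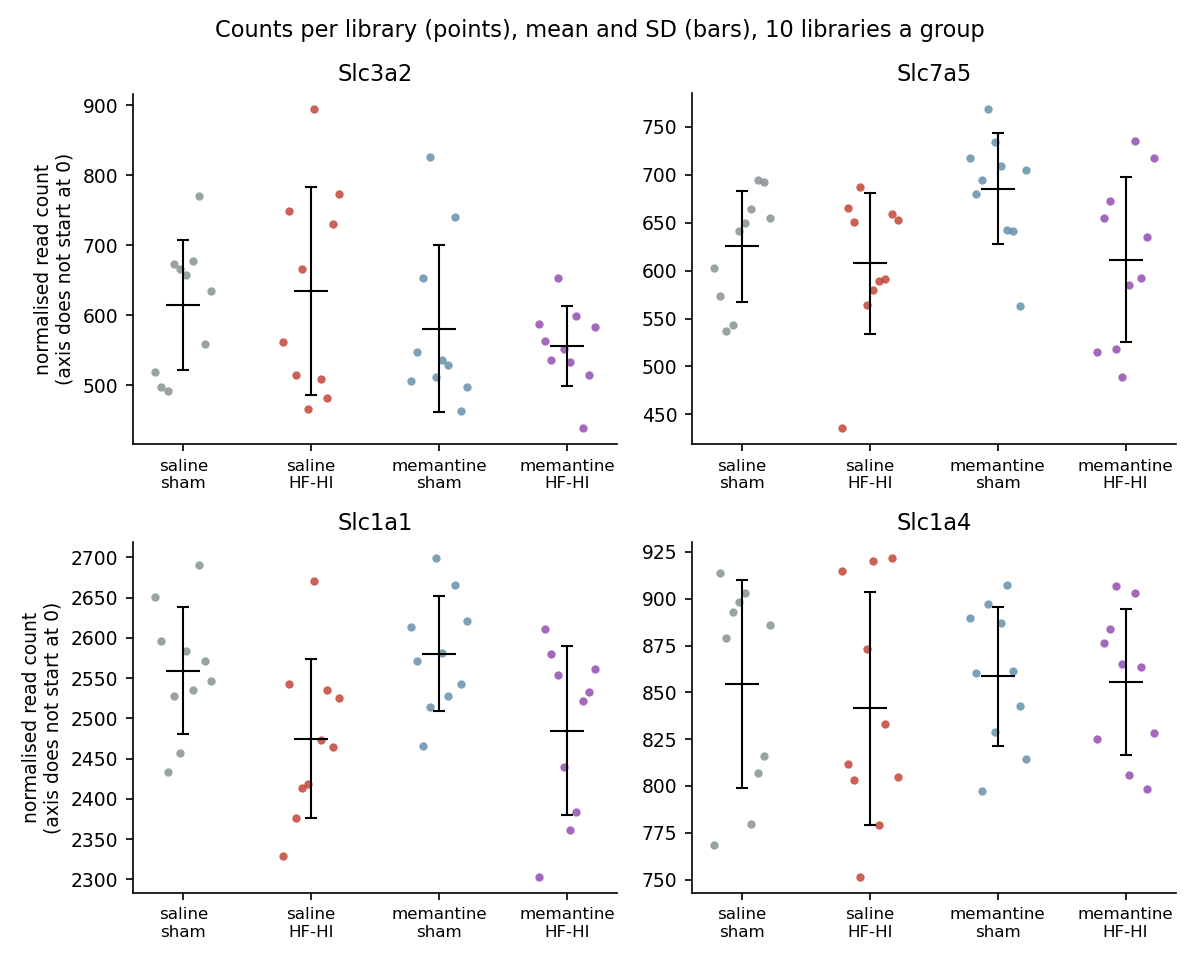
Normalised read counts of Slc3a2, Slc7a5, Slc1a1 and Slc1a4 (vertical axes, not starting at 0) in the 4 groups, with 1 point per library and bars for mean and SD of 10 libraries. Slc1a1 was below the sham mean in 9 of 10 HF-HI libraries in each drug arm, and Slc1a4 means stayed between 841 and 859.

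Slc38a2, the stress-responsive glutamine and neutral amino acid carrier, was higher under saline in most HF-HI libraries. Its counts ran from 2861 through a median of 3262 to 3350 in saline sham and from 3059 through 3678 to 4297 in saline HF-HI. The 8 HF-HI libraries above the sham mean were all above the highest sham library, and the other 2 (replicates 1 and 6) were inside the sham range. The fold was 1.14 (1.07 to 1.21). In the memantine groups the counts ran from 3115 through 3362 to 3560 in sham mice and from 3302 through 3522 to 3891 in HF-HI mice. The fold of 1.06 (0.991 to 1.12, p = 0.0904) did not pass, and 6 of 10 HF-HI libraries were above the sham mean. With only the compared groups in the fit it passed (p = 0.0415).

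Memantine sham was also above saline sham for Slc38a2 in 9 of 10 libraries, with a fold of 1.06 (0.993 to 1.13, p = 0.0863). Memantine HF-HI against saline HF-HI gave 0.981 (0.921 to 1.04, p = 0.511). The ratio of the folds of impact, memantine over saline, was 0.927 (0.849 to 1.01, interaction p = 0.0945). Without saline HF-HI replicate 1 or 6, the 2 lowest libraries of that group, the interaction had p = 0.0371 and 0.0274. Leaving out a low library raises the saline fold by construction, and the interaction is read as not resolved. With the mean of the clock genes as a covariate, an alternative added after the data were seen, the change of Slc38a2 under saline was 0.0974 on the deposited scale in place of 0.118. With the mean of the striatal markers as a covariate, which was planned, that change was 0.102.

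Slc38a1, the other glutamine carrier of this locus, gave no passing difference as a whole. The sum of its 3 transcripts went from 4432 ± 292 in saline sham to 4393 ± 281 after impact, and with memantine from 4433 ± 206 in sham to 4440 ± 154 after impact (mean ± SD, n = 10). The fold of the sum was 0.991 (0.944 to 1.04) for impact under saline and 1.00 (0.955 to 1.05, p = 0.928) under memantine. In the drug comparisons it was 1.00 (0.954 to 1.05, p = 0.962) in sham mice and 1.01 (0.964 to 1.06, p = 0.622) in HF-HI mice. These intervals do not reach the 1.14-fold of its neighbour Slc38a2 under saline.

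**Figure D3:**
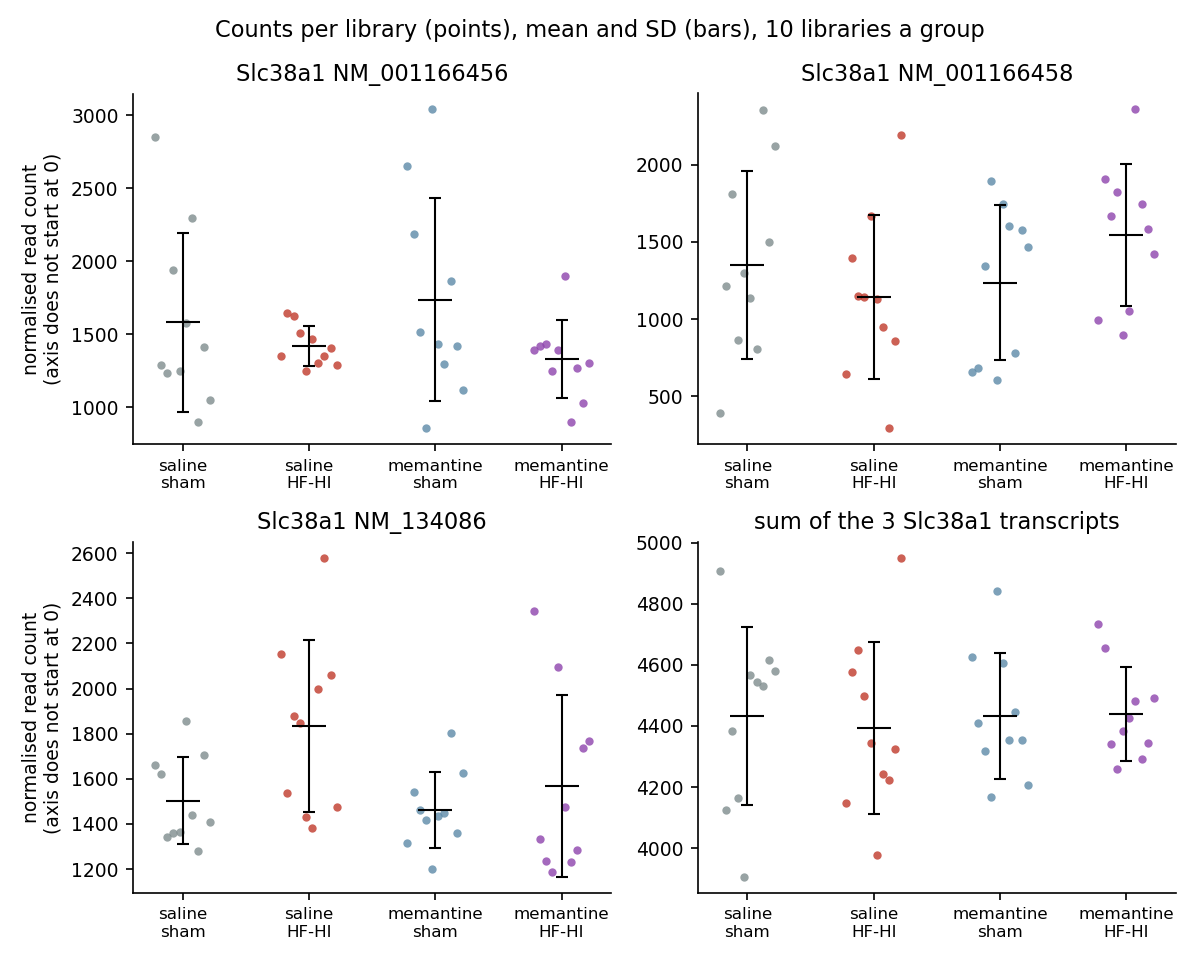
Normalised read counts of the 3 Slc38a1 transcripts and of their sum (vertical axes, not starting at 0), with 1 point per library and bars for mean and SD of 10 libraries. The single transcripts spread widely, with NM_001166458 between 293 and 2189 in saline HF-HI, while the sum stayed between 3906 and 4950 in all libraries.

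The single Slc38a1 transcripts varied far more than their sum. The transcript NM_001166456 ran from 855 to 3039 and NM_001166458 from 603 to 1894 among memantine sham libraries alone. Within groups the deviations of these transcripts ran against each other, with r = -0.73 over 40 libraries as a description. Both have 16 exons and the same last base, and reads shared by transcripts of a gene are divided among them in the counting, so the single values are uncertain. The shorter NM_134086 was higher in saline HF-HI, with 1384 through a median of 1862 to 2579 against 1282 through 1426 to 1855 in saline sham. Its fold was 1.20 (1.03 to 1.41), it took 42.0% of the Slc38a1 counts against 34.0%, and its call was lost without saline HF-HI replicate 8. Under memantine it ran from 1187 through 1404 to 2343 in HF-HI mice against 1199 through 1442 to 1801 in sham mice, with a fold of 1.05 (0.896 to 1.23, p = 0.488).

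Slc1a1, the neuronal glutamate and cysteine transporter, was lower after impact in both arms. Under saline its counts ran from 2433 through a median of 2558 to 2690 in sham mice and from 2329 through 2469 to 2671 in HF-HI mice, a fold of 0.967 (0.935 to 1.00). The saline call was lost in 22 of the 40 fits that left out 1 library and in 3 of 12 other settings. Those settings were centred library medians, quantile normalisation and only the compared groups. Under memantine the counts ran from 2466 through 2577 to 2699 in sham mice and from 2303 through 2527 to 2611 in HF-HI mice. In each arm 9 of 10 HF-HI libraries were below the sham mean and 4 were below the lowest sham library. Slc1a1 fell to 0.963-fold under memantine (0.931 to 0.995, p = 0.0262, adjusted p = 0.967). The ratio of folds was 0.996 (0.95 to 1.04, interaction p = 0.848). The call under memantine was lost without memantine sham replicate 5 (p = 0.0563), without memantine HF-HI replicates 1, 6 or 7 (p = 0.0712, 0.0584 and 0.0534), with quantile normalisation (p = 0.0511) and with library weights (p = 0.0617).

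Slc1a4, the serine and neutral amino acid exchanger, had group means between 841 and 859 and did not pass in any contrast. Its counts ran from 768 through a median of 882 to 914 in saline sham and from 751 through 823 to 922 in saline HF-HI. With memantine they ran from 797 through 861 to 907 in sham mice and from 799 through 864 to 907 in HF-HI mice. The folds of impact were 0.984 (0.932 to 1.04) under saline and 0.997 (0.944 to 1.05, p = 0.901) under memantine. Rises above 1.05-fold in the memantine arm lie outside that interval.

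Atf4, the transcription factor of the response, differed between the impacted groups. Its counts ran from 1207 through a median of 1316 to 1422 in saline sham and from 1203 through 1400 to 1470 in saline HF-HI, where 8 of 10 libraries were above the sham mean and the fold was 1.05 (1.00 to 1.10). The saline call was lost in 13 of the 40 fits that left out 1 library and in 5 of 12 other settings, the striatal, clock and astrocyte covariates among them. In memantine sham the counts ran from 1181 through 1290 to 1408 and after impact from 1216 through 1292 to 1373, with a fold of impact of 1.00 (0.953 to 1.05, p = 0.996). All 10 memantine HF-HI libraries were below the saline HF-HI mean of 1374, although the ranges overlapped. Atf4 fell to 0.942-fold with memantine, compared between the HF-HI groups (0.897 to 0.989, p = 0.0157, adjusted p = 1.00), and passed in each of the 40 fits that left out 1 library (p from 0.00206 to 0.0363) and each of 12 other settings (p from 0.00812 to 0.0453). The saline HF-HI libraries enter both this comparison and the one with saline sham, which may have chosen the genes. The interaction gave a ratio of folds of 0.953 (0.889 to 1.02, p = 0.152), so a difference in the effect of impact between the arms was not shown.

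Memantine HF-HI against saline HF-HI gave 2 passing transcripts of the 10, both lower, beside 3.91% of all transcripts and 2.39% downward. Besides Atf4 this was Slc38a1 NM_134086, which was 0.849-fold (0.724 to 0.995, p = 0.0478, adjusted p = 1.00), with 8 of 10 libraries below the saline HF-HI mean. That call held in 17 of the 40 fits that left out 1 library, and p reached 0.129 without saline HF-HI replicate 8. Both transcripts were higher in saline HF-HI than in saline sham, the comparison that may have chosen the genes. The same saline HF-HI libraries enter here, so the count is not a result about these genes. Memantine sham against saline sham gave 0 passing transcripts, beside 7.51% of all, and the interaction of impact and drug gave 0, beside 3.73%. With only the sham groups in the fit, Slc38a2 (p = 0.0213) and Slc7a5 (p = 0.0355) passed in the former.

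**Figure D4:**
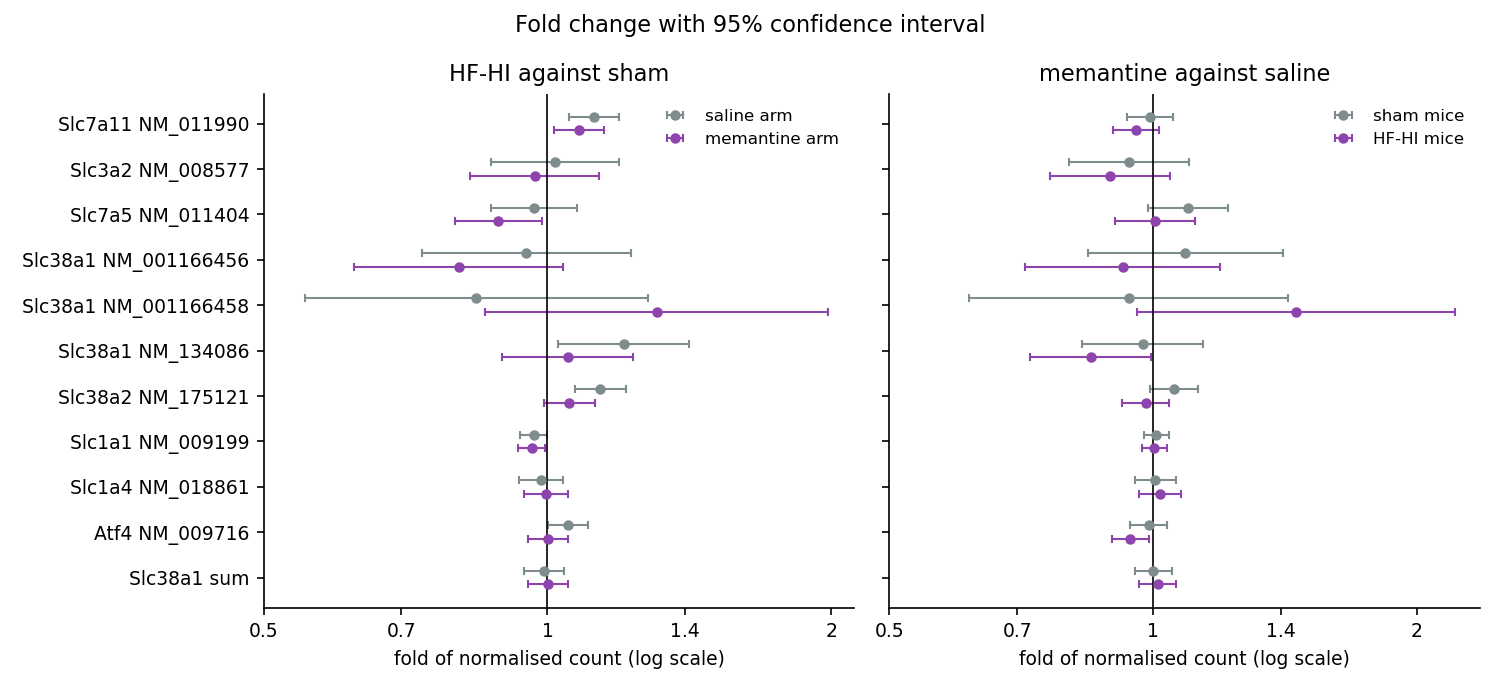
Fold of the normalised count (horizontal log scale) with 95% confidence interval for each transcript and the Slc38a1 sum, for HF-HI against sham in both drug arms (left) and memantine against saline in sham and HF-HI mice (right). Slc7a11 lay above 1 in both arms at 1.12 and 1.08, Slc1a1 below 1 in both at 0.967 and 0.963, and the single Slc38a1 transcripts had the widest intervals.

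Other genes of these pathways were read from lists, counted in transcripts. Their shares are set beside the 9.53% of all transcripts that passed under saline and the 4.61% under memantine. The lists were only partly in the table. Of other amino acid transporters 20 of 37 symbols were present, of the integrated stress response 21 of 49 and of the cytosolic aminoacyl-tRNA synthetases 16 of 20. For glutathione and iron 16 of 30 were present, for the glutamate and glutamine cycle 15 of 19 and for mTORC1 20 of 39. The shares and medians below do not cover the absent genes. Of 22 transcripts of other amino acid transporters, 2 (9.09%) passed under saline, both lower, and 1 (4.55%) under memantine, also lower, shares near those of all transcripts, with median changes of 0.00 and -0.01 on the deposited scale. Slc7a14 averaged 3557 ± 271 in saline HF-HI against 3734 ± 174 in saline sham, with 7 of 10 libraries below the sham mean and a fold of 0.951 (0.909 to 0.995, p = 0.0324, adjusted p = 0.486). Between the impacted groups Slc7a1, a carrier of cationic amino acids that is itself an Atf4 target, was 0.591-fold with memantine (0.426 to 0.82, p = 0.00254, adjusted p = 0.9995). Its counts were 453 ± 204 against 712 ± 162. In that comparison 2 of the 22 transcripts passed, both lower (9.09%, beside 3.91% of all). Slc7a1 is also on the integrated stress response list, where it was the only 1 of 22 that passed there (4.55%, near the share of all).

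The integrated stress response list held 22 transcripts. It was drawn from kinases and subunits of the initiation factor eIF2, targets of Atf4 and genes of endoplasmic reticulum stress such as Hspa5. Under saline 1 passed upward and 1 downward (9.09%, near the share of all transcripts), under memantine 0 did, and the median changes were -0.0017 and -0.0007 on the deposited scale. Those that passed were Eif2s3x, an eIF2 subunit, at 1.04-fold (1.00 to 1.07, p = 0.0299, adjusted p = 0.476), and Hspa5 NM_001163434, an endoplasmic reticulum chaperone, at 0.808-fold (0.694 to 0.941, p = 0.00635, adjusted p = 0.326). In the drug comparison of sham mice Eif2ak3, the kinase PERK, was 1.06-fold (p = 0.0247) and Eif2s1, the subunit that these kinases phosphorylate, was 0.928-fold (p = 0.0273), both with an adjusted p of 0.634.

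The cytosolic aminoacyl-tRNA synthetases, which load transfer RNAs and are known targets of Atf4 in part, held 18 transcripts. Under saline 1 (5.56%) passed upward and under memantine 2 (11.1%) did, with median changes of 0.0058 and 0.0066. Aars, the alanine enzyme, averaged 2932 ± 100 in saline HF-HI against 2797 ± 87.6 in saline sham and was higher in 10 of 10 libraries than the sham mean, a fold of 1.05 (1.02 to 1.08, p = 0.00374, adjusted p = 0.279). Lars, the leucine enzyme, rose 1.08-fold under memantine (1.04 to 1.12, p = 0.000252, adjusted p = 0.351), from 1174 ± 47.9 to 1264 ± 50.2, and memantine sham was itself below saline sham at 0.946-fold (0.912 to 0.981, p = 0.0044). Sars NM_001204979, the serine enzyme, rose 1.15-fold under memantine (1.04 to 1.28, p = 0.0101, adjusted p = 0.967).

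Glutathione synthesis and iron handling, downstream of cystine uptake, held 16 transcripts, of which 1 (6.25%) passed upward under saline and 0 under memantine. That was Mgst3, a microsomal glutathione transferase, at 1.07-fold (1.00 to 1.14, p = 0.0445, adjusted p = 0.508). The median changes were 0.011 and -0.0006. The glutamate and glutamine cycle held 18 transcripts, with 2 passing upward and 2 downward under saline (22.2%) and 0 under memantine. Glul, the astrocyte enzyme that makes glutamine, was 1.04-fold (1.00 to 1.07, p = 0.0386, adjusted p = 0.491) and Got2, a mitochondrial aspartate aminotransferase, was 1.05-fold (1.01 to 1.09, p = 0.0166, adjusted p = 0.415). Aldh5a1, which clears a breakdown product of GABA, was 0.95-fold (0.913 to 0.99, p = 0.0155) and Gad2, which makes GABA and is abundant in striatum, was 0.889-fold (0.796 to 0.994, p = 0.0397).

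The mTORC1 and amino acid sensing list held 21 transcripts, of which 2 (9.52%) passed downward under saline and 1 (4.76%) upward under memantine, again near the shares of all transcripts. Rragd, a GTPase that brings mTORC1 to the lysosome, was 0.946-fold (0.899 to 0.995, p = 0.0333) and Sesn3, a stress-induced regulator of this pathway, was 0.943-fold (0.894 to 0.995, p = 0.0339), while Sesn1 was 1.18-fold under memantine (1.01 to 1.37, p = 0.0416). In memantine sham against saline sham 3 (14.3%) passed, beside 7.51% of all transcripts. Of these, 2 were higher, Rptor among them (1.09-fold, p = 0.0176), and 1 was lower, Rraga (0.921-fold, p = 0.0417). None of the 6 lists had a transcript with an adjusted p-value under 0.1 in any contrast.

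The transcripts of other genes that were most alike across the 40 libraries were found by Pearson correlation of the deposited values, as a description. For Slc7a11 they included Nr3c1, the glucocorticoid receptor (r = 0.68), Slc16a1, a lactate transporter (r = 0.68), Dpp10 (r = 0.61) and B2m (r = 0.59). For Slc38a2 they were Kcnab3 (r = 0.69), Kifbp (r = 0.65), Rsrp1 (r = 0.64), Dusp6 (r = 0.63) and Junb (r = 0.62). For Atf4 they were Dhx33 (r = 0.62), Asph (r = 0.60), Dusp6 (r = 0.60), Chd1 (r = 0.57) and Gnai3 (r = 0.57), so that Dusp6 stood on the lists of both Slc38a2 and Atf4. With group means removed, the correlation was 0.45 between Slc38a2 and Atf4, 0.32 between Slc7a11 and Atf4 and 0.11 between Slc7a11 and Slc38a2. The points share the 4 groups in the former and the libraries in both.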

How the data were processed

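The authors sequenced RNA of 40 cortex samples, and the labels place 10 in each of 4 groups. Per the authors' methods, ribosomal RNA was depleted, stranded paired-end libraries were aligned to mm10 with STAR, eXpress gave counts for each RefSeq transcript, and counts were scaled by DESeq2 size factors and transformed by its variance-stabilising transformation. The submitters' processing notes name HISAT2 and StringTie, and which tools made the table could not be settled. The deposited values are therefore log2 values where counts are high and are compressed where they are low. The table holds abundant transcripts, with a lowest mean count of 549.2, and the threshold is not given in the sources used here. Other transcripts of the genes were not analysed here.

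Normalised counts were recovered by inverting it from its floor of 10.36, the value of a count of 0. In each library 100% of values under 5000 (92.4% of all) were then whole multiples of 1 read within 0.05 reads, with size factors from 0.859 to 1.141. At a count of 600 a change of 1 in log2 counts appears as 0.32 on the deposited scale, and at 3500 as 0.633. Folds come from limma on log2(count + 1). Symbols came from RefSeq tables of GRCm38 (99.6% of transcripts), lengths from GENCODE vM21.

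Contrasts were tested with limma 3.58.1 under R 4.3.3 (lmFit, eBayes with trend) on the deposited values, 1 term per group, all 40 libraries and 5 two-sided contrasts, counted at an unadjusted p under 0.05 and at a Benjamini-Hochberg adjusted p under 0.1. It was tested on simulated data. limma-voom on the recovered reads called 623 transcripts in the saline impact contrast, against 651. Members and lists were chosen with earlier results of these data known. From each list the text names at most the 2 higher and 2 lower transcripts with the smallest p in the impact and drug contrasts. Some transcripts that this rule or the likeness rule names are not reported here. The p-values set each difference against the spread of samples within groups, pooled over all 40 libraries and moderated across transcripts. The labels list these samples separately. Alternatives were other scales, scalings, filters, fits, weights and covariates, and leaving out each library. A fit without a library from outside a comparison keeps the estimate of that comparison and changes only the shared spread.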

Additional observations from a re-analysis of the deposited data

Results flagged for a closer look

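Among 40 groups of member values tested for a sample that stands apart, 1 was marked, and chance alone marks about 1 group in 20. It was Slc7a5 in saline HF-HI replicate 1, with a normalised count of 435.5 where the next library had 563.7, a gap of 0.509 of the range of the group. Among the named genes of the pathway lists, 4 passed the interaction test at an unadjusted p under 0.05, beside 3.73% of all transcripts. Each had an adjusted p of 0.9988, so a difference between the drug arms was not shown. These genes were named for small p-values in contrasts that make up the interaction, so the count is not a result about them. On the deposited scale the change under memantine minus that under saline was -0.0542 for Aars (p = 0.00582), 0.0387 for Lars (p = 0.0218), 0.122 for Sars NM_001204979 (p = 0.0154) and -0.295 for Slc1a2 NM_011393 (p = 0.0242). Slc1a2 encodes the main astrocyte glutamate transporter, and this transcript, with means of 699 in saline HF-HI and 450 in memantine HF-HI, is a small part of its counts, since the 3 Slc1a2 transcripts together averaged 90922.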

How the results depend on the processing

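Replicate numbers are shared by the groups, but samples of 1 number did not deviate together, with correlations from -0.13 to 0.16 over 60 pairs, 4 of them over 0.1. Of the members called in the 5 contrasts, the count under saline was 5 and fell to 3 with only the compared groups in the fit, and ranged from 3 to 5 when 1 library was left out. Under memantine it was 3 and ranged from 1 to 4, the lowest without memantine HF-HI replicate 1. Between the HF-HI groups it was 2 and became 1 with the replicate block, with transcripts summed by symbol, with only the compared groups, and with the striatal, clock or astrocyte covariate, and ranged from 1 to 3. Between the sham groups it was 0, became 2 with only the compared groups and ranged from 0 to 1. For the interaction it was 0, became 1 with the clock covariate (Slc38a1 NM_001166458) and ranged from 0 to 2. The clock and astrocyte covariates were added after the data were seen. The replicate block changed no other call at the unadjusted threshold.

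Direction turned only for changes that did not pass, given here on the deposited scale. For Slc3a2 under saline it was -0.0033 with the striatal covariate. For Slc7a5 between the HF-HI groups it was -0.000942 with library weights and -0.00673 with the clock covariate. For the Slc1a1 interaction it was 0.0028 with library weights, 0.00596 with the striatal covariate and 0.000298 with the clock covariate, and for that of Slc1a4 it was -0.00027 with the astrocyte covariate. Between the sham groups the clock covariate gave 0.0156 for Slc7a11 and 0.00878 for Slc38a1 NM_134086. For Slc1a4 under memantine it was 0.0015 with medians centred and 0.00037 with quantile normalisation. For Atf4 under memantine it was -0.000324 with limma-voom, -0.0027 with library weights and -0.00235 with the striatal covariate. Leaving out 1 library gave, under saline, -0.0853 to 0.0047 for Slc38a1 NM_001166456, -0.0086 to 0.0261 for Slc3a2 and -0.022 to 0.0014 for Slc7a5. Under memantine it gave -0.0062 to 0.0063 for Atf4, -0.0062 to 0.0022 for Slc1a4 and -0.027 to 0.0032 for Slc3a2. Between the HF-HI groups it gave -0.0022 to 0.0102 for Slc1a1 and -0.0133 to 0.0132 for Slc7a5. Between the sham groups it gave -0.0032 to 0.0073 for Slc1a4, -0.112 to 0.0022 for Slc38a1 NM_001166458 and -0.0177 to 0.00304 for Slc7a11, and for the Slc1a1 interaction it gave -0.0091 to 0.0033. The cause was not tested. The wide intervals of the single Slc38a1 transcripts set the limit for them.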
